A study of Mus musculus with 6 samples.

Results

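The genes described here encode the transcription factor NRF2, the proteins that control it, its commonly used target genes, and the enzymes that dispose of peroxides, superoxide and electrophiles. They were chosen by name as 32 gene symbols, and each symbol matched 1 row of the deposited count table by its Ensembl identifier, giving 32 of 55421 genes. Counts came from 6 wells of wild-type mouse macrophages grown from bone marrow in RPMI-1640 medium with 10% fetal bovine serum, antibiotics and 20 ng/mL macrophage colony-stimulating factor (M-CSF). The 3 untreated wells stayed in that medium. The other 3 wells received it mixed with an equal volume of medium conditioned by LL-2 cells, a mouse Lewis lung carcinoma line, so that 50% of their medium was conditioned. All wells were lysed after 24 h, and polyadenylated RNA was sequenced. The sources used here give neither the strain, sex and age of the mice nor whether each well came from its own animal. Conditioning by a tumour line, conditioning as such and the smaller share of fresh medium, with any dilution of M-CSF, cannot be told apart in this design.

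As background, NRF2 is held in the cytoplasm by KEAP1, which hands it to a ubiquitin ligase for destruction. Oxidants or electrophiles that modify KEAP1 cysteines let NRF2 build up, pair with a small MAF protein and bind antioxidant response elements, the sites that BACH1 otherwise occupies as a repressor. The targets supply glutathione and NADPH and keep the thioredoxin and peroxiredoxin system reduced. Macrophages make superoxide and hydrogen peroxide with their own NADPH oxidase, and these enzymes limit what those oxidants do to the cell itself.

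The antioxidant response element core, TGACNNNGC, was searched on both strands of RefSeq promoter windows that run from 250 bases before to 50 bases after a gene start (GRCm38.p6). Windows were found for 27 of the 32 genes, and Abcc1, Gclc, Gsr, Prdx6 and Slc48a1 had none in the table. The core was present for 8 of the 27 genes (29.6%), against 14.0% of all 27025 genes with windows. By window it was in 8 of their 35 (22.9%), against 12.4% of all 32851 windows. Starts are RefSeq's, and other annotations place some of them elsewhere. A match to the core does not show that the site is used. Sequences that differ from this core, or lie outside the windows, were not searched. A gene without a match may thus still hold an element. These stretches of 29 bases are shown because the genes that carry the motif went in both directions: of the 8, Prdx1, Sod1, Srxn1 and Txnrd1 fell in conditioned medium, Mafg and Mgst1 rose, and Gclm and Nfe2l2 did not pass the test. Each is written 5′ to 3′ on the gene's strand with the motif in capitals. Apart from that of Nfe2l2, the matches lie on the opposite strand, so their capitals show the reverse complement. The Srxn1 match begins 29 bases into the transcript, and the others begin 56 to 240 bases before the start. Txnrd1 has 3 windows and Mgst1 has 2, of which 1 each holds the core. Among genes with a window, the core was present for 2 of 6 called higher, 4 of 10 called lower and 2 of 11 not called. Whether the core goes with the direction of change was not tested.
Nfe2l2 (chr2:75704885-75704913, minus strand): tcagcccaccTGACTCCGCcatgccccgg
Gclm (chr3:122245413-122245441, plus strand): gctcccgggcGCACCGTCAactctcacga
Mafg (chr11:120633751-120633779, minus strand): ctctgcaggaGCACGGTCAacccggcgag
Sod1 (chr16:90220696-90220724, plus strand): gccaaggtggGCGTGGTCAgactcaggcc
Srxn1 (chr2:152105542-152105570, plus strand): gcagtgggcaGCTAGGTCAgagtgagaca
Txnrd1 (chr10:82859104-82859132, plus strand): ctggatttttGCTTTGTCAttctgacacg
Prdx1 (chr4:116685456-116685484, plus strand): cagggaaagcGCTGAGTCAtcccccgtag
Mgst1 (chr6:138140461-138140489, plus strand): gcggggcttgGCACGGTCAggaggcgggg

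The Prdx1 match is the only one among the 8 of the form TGACTCAGC, which contains the recognition sequence of AP-1 and is itself a case of the core. That form was present in 0.454% of all windows.

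Depth was 24179548 to 25916709 counts in untreated and 28447825 to 30040682 counts in conditioned-medium libraries. Mitochondrial transcripts took 1.15% to 1.27% of counts. All 8 macrophage markers were detected, of which Csf1r, Itgam and Mertk rose (1.40-fold, 1.46-fold and 1.27-fold) and Cd68, Fcgr1 and Adgre1 fell (1.58-fold, 1.34-fold and 1.31-fold). The list was carried by Lyz2, at means of 45410 and 49290 normalised counts-per-million (CPM) in untreated and conditioned-medium wells, with summed levels of 51000 to 60300 CPM in untreated and 57300 to 61900 CPM in conditioned-medium wells. Of 7 monocyte markers, 5 rose, with summed levels of 229 to 248 CPM against 1200 to 1260 CPM, most of the latter from F13a1, which went from 65.0 to 981 CPM on average. All 6 tested mast cell and basophil markers of 7 fell, with summed levels of 20.4 to 29.2 against 6.64 to 13.3 CPM. Of 10 erythroid markers, Hbb-bs, Hbb-bt and Slc4a1 had 0 counts in all wells, and the 10 summed to at most 6.79 CPM. The 7 epithelial markers summed to at most 1.41 CPM. Neutrophil markers, 9 in all, gave 1 rise and 2 falls (blocking on the well number gave 6 and 2), at summed levels of 559 to 712 against 650 to 751 CPM. None of 6 fibroblast markers was called (4 rose with the block), and their sums were 16.6 to 67.2 against 31.6 to 93.4 CPM. Of 6 B and T cell markers 3 were tested and Ms4a1 fell (1.85-fold), with sums of 4.85 to 5.74 against 3.2 to 4.03 CPM. The part of these other cells in the results below was not tested, and in such bulk RNA fewer cells of a type and less RNA per cell cannot be told apart.

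Conditioned medium changed the antioxidant genes by small amounts and in both directions. All 32 genes passed the filter on low counts. With edgeR's quasi-likelihood test and Benjamini-Hochberg adjustment over all tested genes, 8 rose and 10 fell at an adjusted p under 0.05, so 18 of 32 (56.2%) were called, against 27.9% of 13853 tested genes. Among all tested genes, 12.6% were called higher and 15.2% lower. Among the 8277 genes with a mean of at least 10 CPM, where all members but Nqo1 lie, 35.5% were called. The median log2 fold change was -0.014 over the members and 0.013 over all tested genes. No called member changed by more than 2-fold, and only Gstp1 and Glrx were called with more than a 1.5-fold difference, against 10.1% of all tested genes. Scaling to the total count alone gave 12 higher and 9 lower members. That put 57.1% of the called members on the higher side, compared with 44.4% under TMM. Over all tested genes, calls went the same way, from about 1750 higher and 2110 lower under TMM to about 2660 and 1710. Without untreated well 2 the count of higher members fell to 5, and that of all tested genes to about 1150 of 14300.

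The groups did not overlap for 24 of the 32 members, against 42.8% of all tested genes. Of these, 11 were higher and 13 lower in conditioned medium, against 21.2% and 21.6% of all tested genes. The members' counts, summed after scaling each gene to its length, came to 6650 ± 166 transcripts-per-million (TPM) in untreated and 6630 ± 61.3 TPM in conditioned-medium wells (SD, n = 3 per group). TPM leave out the TMM factors used for CPM and fold changes. On the TPM scale the summed level differed by less than the spread between wells, while its composition moved. In TMM-scaled CPM, which leave out lengths, the members summed to 5730 to 6260 in untreated and 5710 to 5860 in conditioned-medium wells. Sums that use both lengths and TMM factors were not compared.

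**Figure D1:**
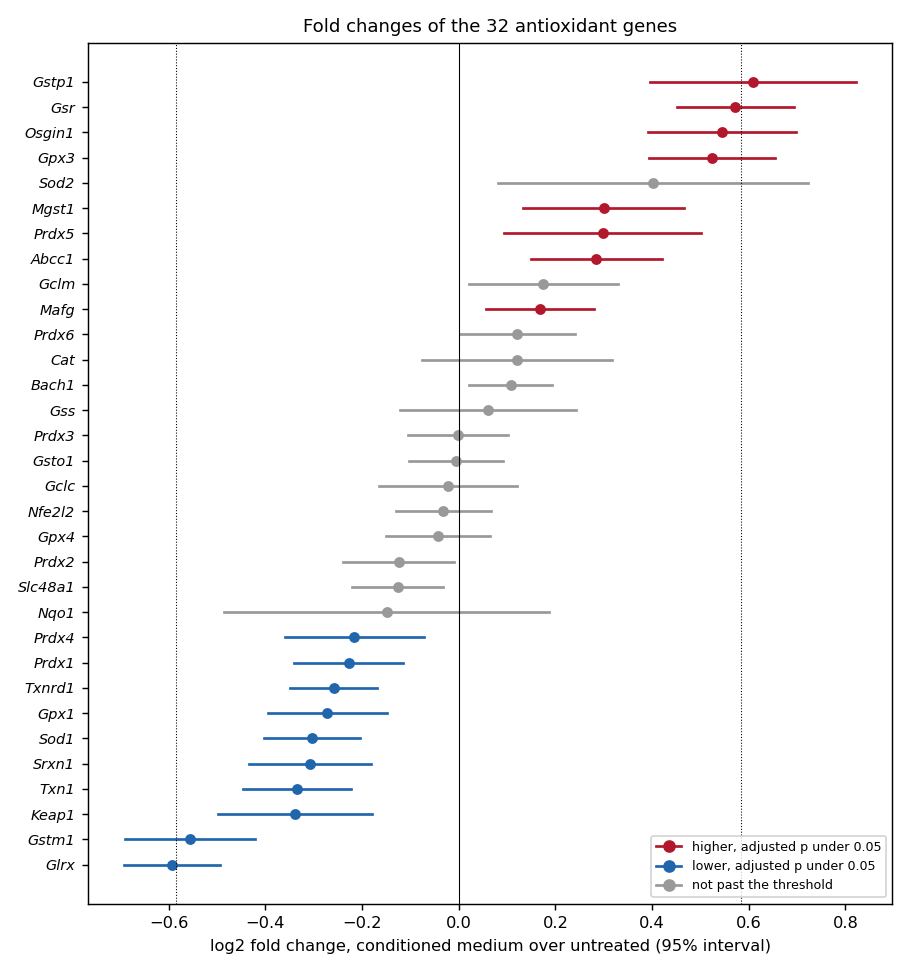
Log2 fold change of each antioxidant gene in conditioned medium over untreated wells (points), with its 95% interval before adjustment over genes (bars), ordered by size. Dotted lines mark 1.5-fold. The 8 called rises are red, the 10 called falls blue, and the other 14 grey. Every point but those of Gstp1 and Glrx lies within the dotted lines.

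Among the genes that control NRF2, the level of the factor's own transcript did not pass the test while that of its inhibitor fell. Nfe2l2, which encodes NRF2 (ENSMUSG00000015839, chromosome 2, 75675513 to 75704641, GRCm38), stood at 504, 504 and 535 CPM in untreated wells 1 to 3 and at 499, 497 and 514 CPM in the conditioned-medium wells. The groups overlapped, and the ratio of conditioned medium to untreated was 0.98 with a 95% interval of 0.91 to 1.05 (adjusted p = 0.64). Keap1, the inhibitor and cysteine sensor (chromosome 9, 21229730 to 21239361), stood at 70.5, 73.6 and 82.8 CPM in untreated and 58.1, 56.9 and 64.5 CPM in conditioned-medium wells. It was lower in all conditioned-medium wells than in any untreated well, by 1.26-fold (log2 fold change -0.34, SE 0.07, adjusted p = 0.0064). Of its exon bases 14.0% are shared with Gm16754 on the opposite strand, a gene with a mean of 23.3 counts against 1818 for Keap1.

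Mafg, a small MAF partner of NRF2 and BACH1, stood at 111, 106 and 102 CPM in untreated and 119, 115 and 124 CPM in conditioned-medium wells. It rose 1.12-fold (adjusted p = 0.0315), but the call was lost without untreated well 2 (0.0978) or 3 (0.0844), without conditioned-medium well 1 (0.101) or 3 (0.0898), and without both wells numbered 3 (0.0967). Bach1, the repressor, varied little within a group, at 210.3, 213 and 214 CPM in untreated and 230.2, 229 and 228 CPM in conditioned-medium wells. Its groups did not overlap, but its ratio of 1.08 did not pass the test (adjusted p = 0.0627), and it did with the well number as a block (0.038), with total-count scaling (log2 fold change 0.17 against 0.11, adjusted p = 0.00791) and without both wells numbered 3 (0.0412).

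Of the 4 genes of glutathione synthesis and recycling, only the recycling enzyme passed the test, against 27.9% of all tested genes. Gsr, glutathione reductase, which regenerates glutathione from its oxidised form with NADPH (ENSMUSG00000031584, chromosome 8, 33652523 to 33698163), stood at 90.4, 88.9 and 87.6 CPM in untreated and 137, 138 and 122 CPM in conditioned-medium wells. Each conditioned-medium well lay above all untreated wells, and the rise was 1.49-fold (log2 fold change 0.57, SE 0.05, adjusted p = 6.44e-05). Gclc, the catalytic subunit of the rate-limiting glutamate-cysteine ligase, stood at 27.3, 28.7 and 25.9 against 27.9, 27.5 and 25.3 CPM. Those groups overlapped, with a ratio of 0.98 and an interval of 0.89 to 1.09 (adjusted p = 0.833).

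Gclm, the modifier subunit of the same ligase, stood at 70.6, 65.3 and 69.8 CPM in untreated and 72.1, 74.3 and 85.8 CPM in conditioned-medium wells, where well 3 was the highest. Its ratio of 1.13 did not pass the test (adjusted p = 0.0895), although it did with the well number as a block (0.0158), with total-count scaling (0.0296) and with no filter on low counts (0.0271). Gss, glutathione synthetase, was scarce at 11.9 ± 0.728 against 12.4 ± 0.42 CPM (SD, n = 3), with an interval of its ratio of 0.92 to 1.18. Its exons overlap Gssos2 and Acss2 on the opposite strand over 12.9% and 9.6% of their bases, and Acss2 had as high a mean count, so the count of Gss is uncertain. The 4 genes summed to 152 ± 4.31 TPM in untreated and 211 ± 5.85 TPM in conditioned-medium wells, a difference in level per length that lay mostly in Gsr.

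**Figure D2:**
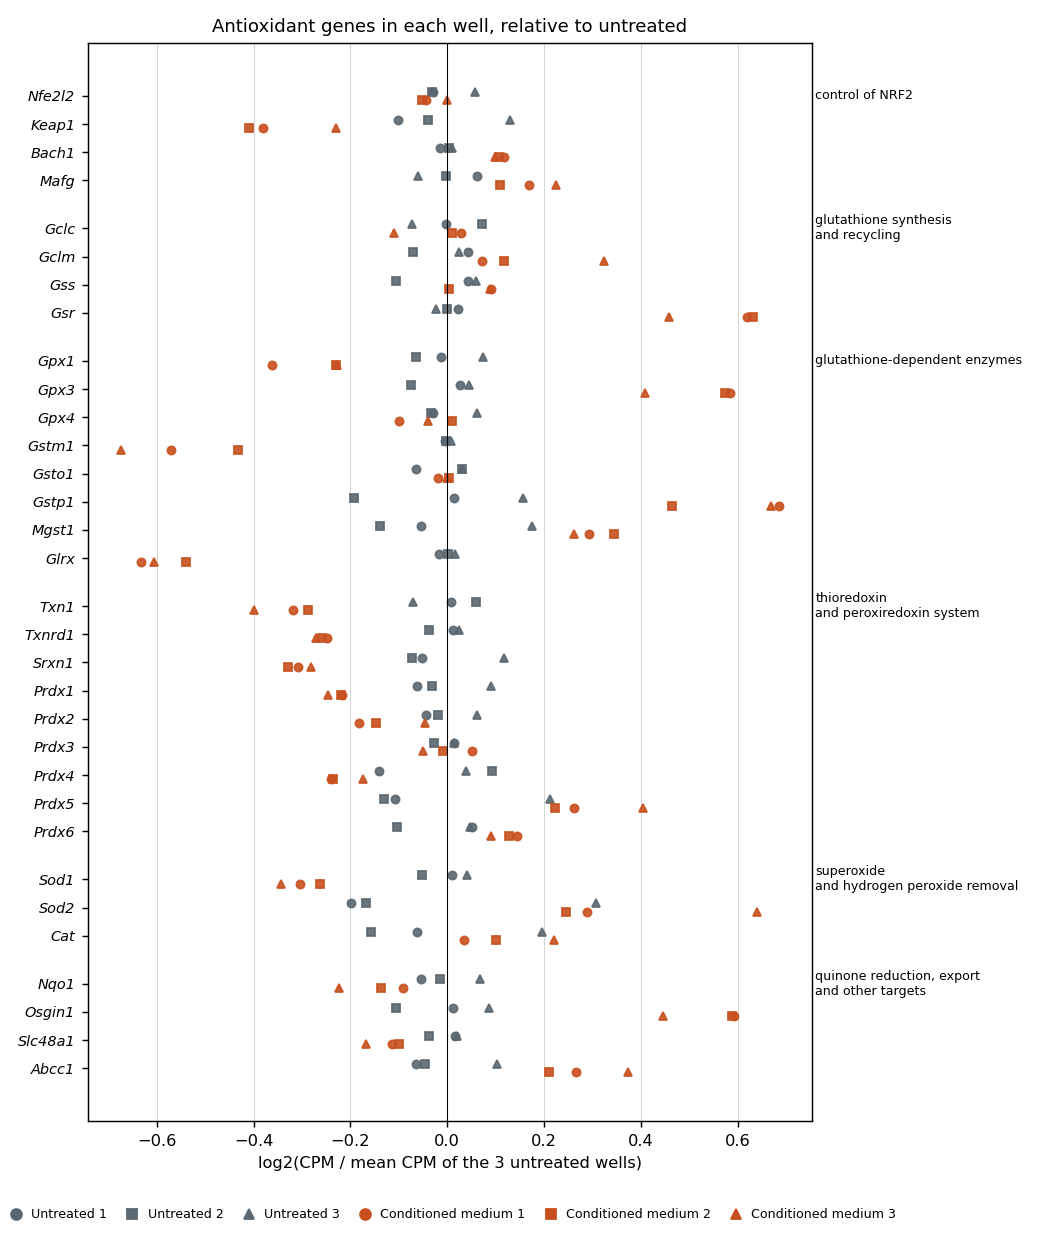
Level of each antioxidant gene in each of the 6 wells, as the log2 ratio of its scaled CPM to the mean of the 3 untreated wells, grouped by role. Untreated wells are grey and conditioned-medium wells orange, with a circle, square and triangle for wells 1, 2 and 3. The orange points lie right of the grey ones for Gsr, Gpx3, Gstp1 and Osgin1 and left of them for Gstm1, Glrx, Txn1 and Keap1.

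Of the 8 glutathione-dependent enzymes, 3 were higher, 3 lower and 2 not called, against 12.6% higher and 15.2% lower among all tested genes. Among the peroxidases, Gpx3, which encodes the secreted enzyme (chromosome 11, 54902453 to 54910377), stood at 136, 127 and 138 CPM in untreated and 200, 199 and 177 CPM in conditioned-medium wells. Gpx3 rose 1.44-fold (log2 fold change 0.52, SE 0.06, adjusted p = 0.000186), and its groups were well apart. Gpx1, the abundant cytosolic peroxidase (chromosome 9, 108338903 to 108340343), went the other way, from 352, 339 and 374 CPM to 276, 303 and 303 CPM. Gpx1 was 1.21-fold lower (log2 fold change -0.27, SE 0.05, adjusted p = 0.00521), again with no overlap between groups.

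Gpx4, the peroxidase that reduces lipid hydroperoxides in membranes and so guards against ferroptosis, stood at 258, 257 and 275 CPM in untreated and 246, 265 and 256 CPM in conditioned-medium wells. Its groups overlapped, and its ratio was 0.97 with an interval of 0.90 to 1.05 (adjusted p = 0.557). Of the 50-base stretches of its transcript, 61.7% also occur in Gpx4-ps2, which had a mean of 35.7 counts, so its count is uncertain. Per length, Gpx3 made up 15.6% ± 0.371 of the TPM of these 3 peroxidases in untreated and 23.1% ± 1.70 in conditioned-medium wells, and Gpx1 52.1% ± 0.31 and 44.5% ± 1.47 (SD, n = 3 per group). Neither share overlapped between groups. These shares and those below were formed after the genes' values were seen.

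Glutathione transferases attach glutathione to electrophiles. Gstm1, the mu-class enzyme (chromosome 3, 108012255 to 108017973), was closely alike in the untreated wells, at 271, 271 and 273 CPM, and stood at 183, 201 and 170.1 CPM in the conditioned-medium wells. It fell 1.47-fold (log2 fold change -0.56, SE 0.06, adjusted p = 0.000151). Some 23.1% of its 50-base stretches recur in 5 other genes, chiefly Gstm2-ps1 with a mean of 21.8 counts. Gstp1, the pi-class enzyme (chromosome 19, 4035407 to 4037985), was far scarcer, at 20.8, 18.0 and 22.9 CPM in untreated and 33.1, 28.4 and 32.7 CPM in conditioned-medium wells.

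With a 1.52-fold rise (log2 fold change 0.61, SE 0.09, adjusted p = 0.00125), Gstp1 stood close to Gsr at the upper end of the 32 genes, and the order of the pair changed when untreated well 2 or conditioned-medium well 3 was left out. It shares 62.3% of its 50-base stretches with Gstp2, whose row held a mean of 1.0 count, so reads may be lost or split between the copies. Mgst1, the membrane-bound enzyme, stood at 106, 100.3 and 125 and 135, 140.3 and 133 CPM and rose 1.23-fold (adjusted p = 0.0143). That call was lost without untreated well 1 (0.0593) or 2 (0.0609). Gsto1, the omega-class enzyme, stood at 83.8 ± 3.13 and 83.5 ± 0.683 CPM, with an interval of its ratio of 0.93 to 1.07. Gstm1 thus went from 62.7% ± 1.64 to 49.2% ± 2.00 of the TPM of these 4 transferases.

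Glrx, glutaredoxin, which removes glutathione from protein thiols (ENSMUSG00000021591, chromosome 13, 75839868 to 75850154), stood with Gstm1 at the lower end of the 32 genes. Its level was 74.9, 75.9 and 76.6 CPM in untreated and 48.9, 52.1 and 49.8 CPM in conditioned-medium wells. The spread within each group was small beside the gap between them, and the fall was 1.51-fold (log2 fold change -0.59, SE 0.04, adjusted p = 1.77e-05).

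The thioredoxin and peroxiredoxin genes were mostly lower. Of 9, 5 fell, 1 rose and 3 were not called, against 15.2% lower and 12.6% higher among all tested genes. The median log2 fold change of the 9 was -0.22. With total-count scaling 4 fell and 2 rose, and with the well number as a block 6 fell and 1 rose. Txnrd1, Txn1 and Prdx1, which pass electrons from NADPH to peroxides in that order, were among those that fell. Txnrd1, thioredoxin reductase, a selenoprotein that draws on NADPH (chromosome 10, 82833951 to 82897712), stood at 177, 171 and 178 CPM in untreated and 148, 147 and 145 CPM in conditioned-medium wells. It was 1.20-fold lower (log2 fold change -0.26, SE 0.04, adjusted p = 0.00116) with wells of each group close together. Txn1, the thioredoxin that Txnrd1 reduces (chromosome 4, 57943373 to 57956411), went from 217, 225 and 206 to 173, 177 and 164 CPM. It was 1.26-fold lower (log2 fold change -0.33, SE 0.05, adjusted p = 0.00101).

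Srxn1, sulfiredoxin, which repairs peroxiredoxins whose active cysteine has been overoxidised (chromosome 2, 152105516 to 152111376), stood at 80.4, 79.2 and 90.4 CPM in untreated and 67.3, 66.3 and 68.5 CPM in conditioned-medium wells. Untreated well 3 was the highest, the groups did not overlap, and the fall was 1.24-fold (adjusted p = 0.00314). Prdx1, the cytosolic peroxiredoxin (chromosome 4, 116685544 to 116700822), had the highest level of all 32 genes, with 1078, 1101 and 1198 CPM in untreated and 968, 967 and 949 CPM in conditioned-medium wells. It fell 1.17-fold (log2 fold change -0.23, SE 0.05, adjusted p = 0.00824). Prdx1 and Sod1 share 10.9% and 23.1% of their 50-base stretches with other rows, chiefly Gm21399 and Gm8566, which had means of 1.5 and 0.5 counts.

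Prdx4, the peroxiredoxin of the endoplasmic reticulum, stood at 42.8, 50.3 and 48.4 CPM in untreated and 40.0, 40.1 and 41.8 CPM in conditioned-medium wells. It fell 1.16-fold (adjusted p = 0.0324), but the call was lost with total-count scaling (0.0851). It was also lost without untreated well 2 (0.131) or 3 (0.0834) and without conditioned-medium well 1 (0.0998) or 2 (0.0783). Prdx5, found in mitochondria, peroxisomes and cytosol, was the only gene of the 9 that rose. Its level was 313, 308 and 391 CPM in untreated and 404, 394 and 446 CPM in conditioned-medium wells, so that untreated well 3 came within a few CPM of the lowest conditioned-medium well.

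The 1.23-fold rise of Prdx5 (adjusted p = 0.0358) was lost without untreated well 1 (0.126) or 2 (0.141), and without conditioned-medium well 1 (0.0733) or 3 (0.0833). Prdx5 shares 31.4% of its exon bases with Trmt112 on the opposite strand, which had a mean of 990.3 counts against 10329 for Prdx5, so its count is uncertain. Prdx1 made up 56.9% ± 0.801 of the TPM of the 6 peroxiredoxins in untreated and 50.4% ± 1.43 in conditioned-medium wells, and Prdx5 24.1% ± 1.60 and 30.9% ± 1.51 (SD, n = 3 per group). Neither share overlapped between groups.

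The other 3 peroxiredoxins were not called. Prdx2, a second cytosolic form, stood at 156, 159 and 168 CPM in untreated and 142, 145 and 156 CPM in conditioned-medium wells, with a ratio of 0.92 (adjusted p = 0.102). Prdx2 passed with the well number as a block (0.0201), without conditioned-medium well 3 (0.0298) and without both wells numbered 3 (0.0308). It overlaps Junb and Rnaseh2a on the opposite strand over 5.67% and 6.43% of its exon bases, and 23.8% of its 50-base stretches recur elsewhere. Prdx3, the mitochondrial form, stood at 53.0 ± 0.879 and 52.9 ± 1.86 CPM, and its ratio had an interval of 0.93 to 1.07. Prdx6, which also has phospholipase activity, stood at 59.7 ± 3.58 and 65.0 ± 1.24 CPM, with a ratio of 1.09 (adjusted p = 0.119, and 0.0247 with total-count scaling).

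Of the 3 genes that remove superoxide and bulk hydrogen peroxide, 1 fell, against 15.2% called lower among all tested genes. Sod1, the cytosolic copper and zinc superoxide dismutase (chromosome 16, 90220754 to 90226329), stood at 146, 139.7 and 149 CPM in untreated and 117, 121 and 114 CPM in conditioned-medium wells. It was 1.23-fold lower (log2 fold change -0.30, SE 0.04, adjusted p = 0.000883) with no overlap. Sod2, the mitochondrial manganese enzyme (chromosome 17, 13006846 to 13040063), stood at 151, 154 and 214 CPM in untreated and 211, 205 and 269 CPM in conditioned-medium wells. Well 3 was the highest in both groups, and untreated well 3 lay above conditioned-medium wells 1 and 2. The ratio of 1.32 did not pass the test (interval 1.06 to 1.65, adjusted p = 0.0646).

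Within well numbers the Sod2 ratio was 1.40, 1.33 and 1.26, and with the number as a block the log2 fold change was 0.41 (adjusted p = 1.44e-06). Sod2 also passed without untreated well 3 (log2 fold change 0.58, adjusted p = 0.00464), without both wells numbered 3 (1.21e-05), with total-count scaling (0.0307) and with no low-count filter (0.000243). Leaving out conditioned-medium well 3 instead lowered its log2 fold change from 0.40 to 0.27 (adjusted p = 0.166). Cat, catalase, the peroxisomal enzyme that splits hydrogen peroxide, stood at 395, 369.6 and 472 CPM in untreated and 422, 442 and 480.4 CPM in conditioned-medium wells. Its wells 3 were likewise the highest. Its ratio of 1.09 did not pass (adjusted p = 0.345), and it did with the block (0.0407), without untreated well 3 (log2 fold change 0.23 against 0.12, adjusted p = 0.0257) and without both wells numbered 3 (0.0123). Leaving out untreated well 2 or conditioned-medium well 3 lowered the log2 fold change of Cat to 0.05 and 0.07 (adjusted p = 0.76 and 0.637).

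**Figure D3:**
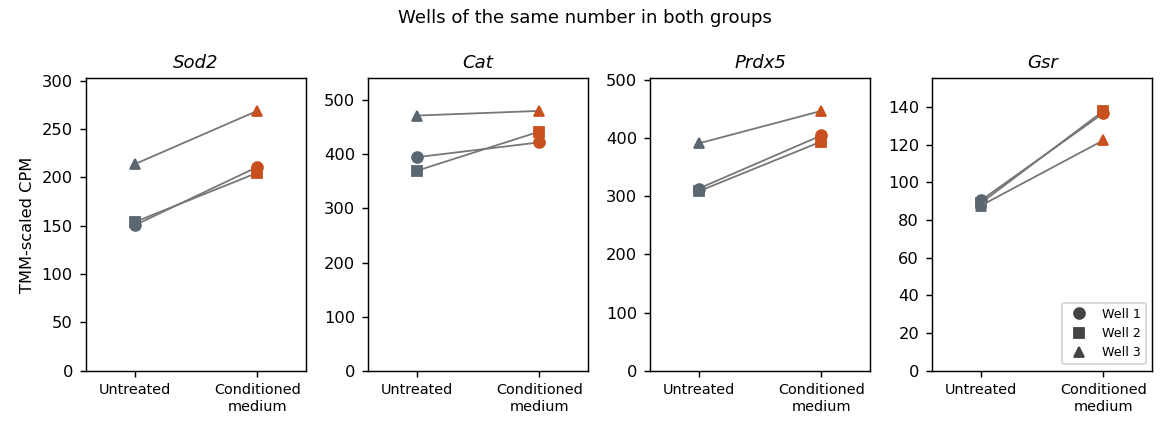
Scaled CPM of Sod2, Cat, Prdx5 and Gsr in untreated and conditioned-medium wells, each axis starting at 0, with lines joining wells of the same number. Well 3 (triangles) is the highest in both groups for Sod2, Cat and Prdx5 and the lowest in both for Gsr, and each line rises from untreated to conditioned medium.

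The wells numbered 3 stood apart from the others beyond these genes. In a principal component analysis of all tested genes, the groups lay apart along the leading component (54.2% of the variance), and both wells numbered 3 lay apart from the rest along the next (17.9%). Of the members, 9 were highest in well 3 of both groups and 3 were lowest there, against 19.1% and 17.9% of all tested genes. Nothing in the labels says what the number stands for. With the number as a block, 24 members were called, 12 in each direction, against 36.3% of all tested genes in that fit, and no call made without the block was lost. Without both wells numbered 3, an alternative chosen after the data were seen, 10 members were higher and 11 lower. Of about 14000 genes tested in that fit, about 1870 were higher and 2210 lower.

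Among the remaining targets, Nqo1, the quinone reductase often used as a marker of NRF2 activity, had the lowest CPM of the 32 genes, at 3.09, 3.18 and 3.37 CPM in untreated and 3.02, 2.92 and 2.75 CPM in conditioned-medium wells. All conditioned-medium wells were lower, but the ratio of 0.90 did not pass the test, and its interval of 0.71 to 1.14 was, relative to its size, the widest of the 32 (adjusted p = 0.507). Osgin1, an oxidative stress-induced growth inhibitor (chromosome 8, 119434124 to 119446256), stood at 24.4, 22.5 and 25.7 CPM in untreated and 36.5, 36.4 and 32.9 CPM in conditioned-medium wells. Its groups were far apart, with a 1.46-fold rise (log2 fold change 0.54, SE 0.07, adjusted p = 0.000364).

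Abcc1, which encodes the exporter MRP1 for glutathione conjugates and leukotriene C4 (chromosome 16, 14361558 to 14475737), rose 1.22-fold, from 156, 158 and 175 to 196, 189 and 211 CPM (adjusted p = 0.00679). Slc48a1, which moves haem out of phagolysosomes, stood at 327, 315 and 328 CPM in untreated and 299, 301 and 287 CPM in conditioned-medium wells, with no overlap. Its ratio of 0.92 fell just short of the threshold (adjusted p = 0.0506). It passed with RLE scaling (0.0444), DESeq2 (0.0415), limma-voom (0.0434), a filter at a mean of 1 CPM (0.0416) and the well number as a block (0.0219).

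Levels per length ordered the genes over a wide range. In untreated wells Prdx1 led at 1070 ± 42.7 TPM (SD, n = 3), followed by Gpx1 at 712 ± 21.8, Txn1 at 595 ± 37.5 and Gstm1 at 533 ± 7.93 TPM, and none of these neighbours overlapped. Cat, Prdx5 and Gpx4 came next at 456 ± 50.0, 456 ± 53.6 and 442 ± 8.79 TPM and could not be ordered, since their wells overlapped. Nfe2l2 itself was the eighth most abundant, at 392 ± 6.64 TPM, above most of the enzymes. At the low end stood Gclc at 21 ± 1.43 TPM, and Nqo1 and Gss, whose wells overlapped, at 5.99 ± 0.173 and 5.8 ± 0.287 TPM. Lengths were those of all annotated exons of a gene, so genes with long rarely used exons, such as Sod2 with 10010 bases, may be understated on this scale.

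**Figure D4:**
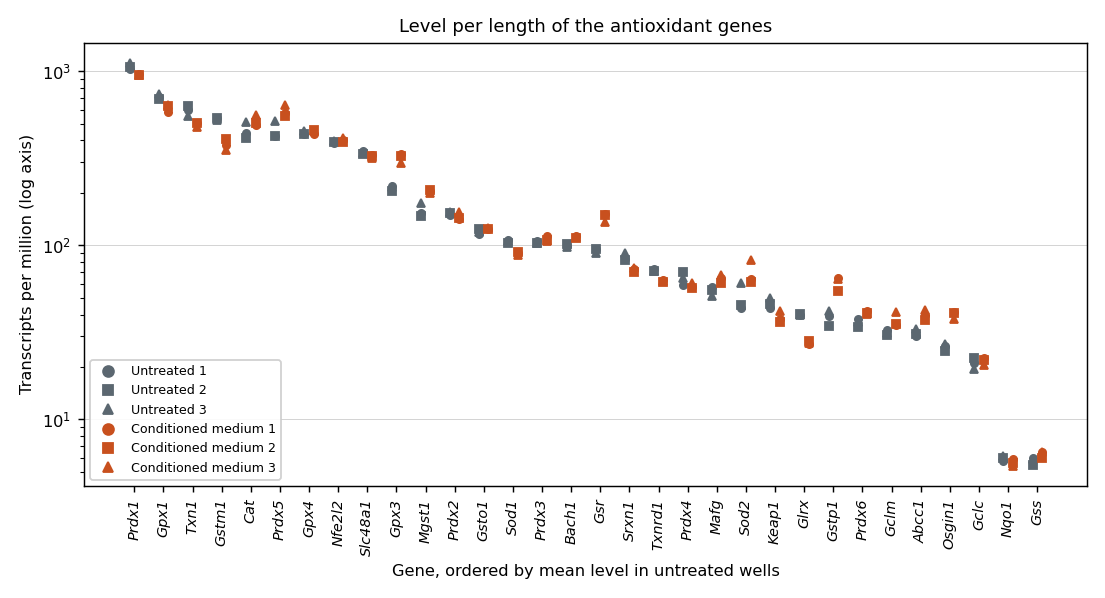
Level per length (TPM, log axis) of each antioxidant gene in each well, ordered by the untreated mean. Untreated wells are grey and conditioned-medium wells orange. Prdx1 leads at 1070 TPM and Gss is last at 5.80 TPM in untreated wells, and the shifts between groups are small beside this range.

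The other genes of these pathways came to 91 with each gene counted once. Of the 80 that could be tested, 12 rose (15%) and 15 fell (18.8%), against 12.6% and 15.2% of all tested genes. The called share of 33.8% was thus near the background of 27.9%, or 35.5% of genes with at least 10 CPM, and their median log2 fold change was -0.003. A list of 15 genes around NRF2 held the 4 control genes above and the target Hmox1. In it Mafg and Hmox1 rose, and Keap1, Maff, Mafk and Sqstm1 fell. Maff and Mafk, the other small MAF genes, fell 1.37-fold and 1.29-fold (adjusted p = 0.0258 and 0.00247), whereas Mafg rose. The Maff call was lost without untreated well 2 (0.0835) or 3 (0.0696) and without conditioned-medium well 1 (0.0864) or 2 (0.0738). Hmox1, haem oxygenase, a target of both NRF2 and BACH1, stood at 315, 327 and 344 CPM in untreated and 426, 439.5 and 413 CPM in conditioned-medium wells. It rose 1.30-fold (log2 fold change 0.37, SE 0.05, adjusted p = 0.000407).

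Of 15 genes that supply NADPH or glutathione precursors, 13 were tested, and 2 rose and 2 fell, against 12.6% and 15.2% of all tested genes. With the well number as a block 3 rose and 4 fell, against 36.3% of all tested genes called in that fit. Slc7a11, which imports the cystine from which glutathione is made, fell. Its level was 34.5, 31.2 and 37.1 CPM in untreated and 17.8, 16.5 and 21.2 CPM in conditioned-medium wells, a 1.85-fold fall with no overlap (log2 fold change -0.89, SE 0.10, adjusted p = 0.000186). Oplah, the oxoprolinase that returns glutamate from the glutathione cycle, rose 1.77-fold from 4.48 ± 0.589 to 7.92 ± 1.13 CPM. It overlaps Exosc4 on the opposite strand over 11.3% of its exon bases, so its count is uncertain. Idh1, a cytosolic source of NADPH, rose 1.46-fold from 325 ± 18.6 to 475 ± 43.4 CPM (adjusted p = 0.000409).

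Of 20 other NRF2 targets, 17 were tested, and 2 rose and 4 fell, against 12.6% and 15.2% of all tested genes. Hmox1, counted in both lists, was among those that rose. Fth1, the ferritin heavy chain that stores iron, fell 1.32-fold from 12720, 12280 and 14130 to 9450, 9986 and 10290 CPM (adjusted p = 0.00156). Ppard, a nuclear receptor, rose 1.31-fold from 37.6 ± 0.974 to 49.5 ± 3.94 CPM (adjusted p = 0.00146). Of 20 other glutathione enzymes, 17 were tested, and 4 rose and 1 fell, against the same shares of all tested genes. Hagh, the hydrolase that frees glutathione in the last step of methylglyoxal disposal, rose 1.46-fold from 28.5 ± 1.33 to 41.5 ± 0.865 CPM (adjusted p = 8.34e-05). Mgst3, a membrane-bound transferase, fell 1.32-fold (adjusted p = 0.00392), opposite to Mgst1. Gstt2, a theta-class transferase, rose 1.31-fold (adjusted p = 0.0355). The Gstt2 call was lost without untreated well 2 (0.0593) or 3 (0.0778), without conditioned-medium well 1 (0.12) or 2 (0.0971), and without both wells numbered 3 (0.0589).

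Of 15 other genes of the thioredoxin system, 3 rose and 2 fell, against 12.6% and 15.2% of all tested genes. Txnip, which binds and inhibits thioredoxin, stood at 420.3, 426 and 436 CPM in untreated and 657, 672 and 650.3 CPM in conditioned-medium wells. It rose 1.54-fold (log2 fold change 0.63, SE 0.04, adjusted p = 7.85e-06) in the wells where Txn1 and Txnrd1 were lower. Its exons overlap Gm15441 on the opposite strand, which had a mean of 14.2 counts against 15106 for Txnip. Msra, which reduces oxidised methionine with thioredoxin, fell 1.49-fold from 27.0 ± 2.50 to 18.1 ± 0.799 CPM (adjusted p = 0.000602). Sesn2, a stress-induced sestrin, rose 1.32-fold from 26.1 ± 2.81 to 34.5 ± 0.843 CPM (adjusted p = 0.00363).

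Of 11 genes that make superoxide or serve the dismutases, 8 were tested, and 1 rose and 3 fell, against 12.6% and 15.2% of all tested genes. With the well number as a block 3 rose and 3 fell, against 36.3% of all tested genes called in that fit. Total-count scaling gave 3 and 1, beside about 2660 and 1710 of about 13900 tested genes. Cyba, the smaller membrane subunit of the phagocyte NADPH oxidase, stood at 803, 810.3 and 789 CPM in untreated and 549, 572 and 527 CPM in conditioned-medium wells. It was 1.46-fold lower with no overlap (log2 fold change -0.54, SE 0.05, adjusted p = 3.21e-05). Cybb, the catalytic subunit, stood at 2320, 2252 and 2904 CPM in untreated and 1837, 1819 and 2204 CPM in conditioned-medium wells, with well 3 the highest in both groups. It was 1.28-fold lower (log2 fold change -0.35, adjusted p = 0.0347).

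The Cybb call was lost with total-count scaling (0.0516), without untreated well 3 (log2 fold change -0.23, adjusted p = 0.072) and without conditioned-medium well 1 (0.118) or 2 (0.099). Rac2, the small GTPase of the same oxidase, was 1.15-fold lower (adjusted p = 0.0287), and this call was lost with total-count scaling (0.0631). It was also lost without untreated well 2 (0.0972) or 3 (0.0663) and without conditioned-medium well 1 (0.0935) or 2 (0.0599).

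**Figure D5:**
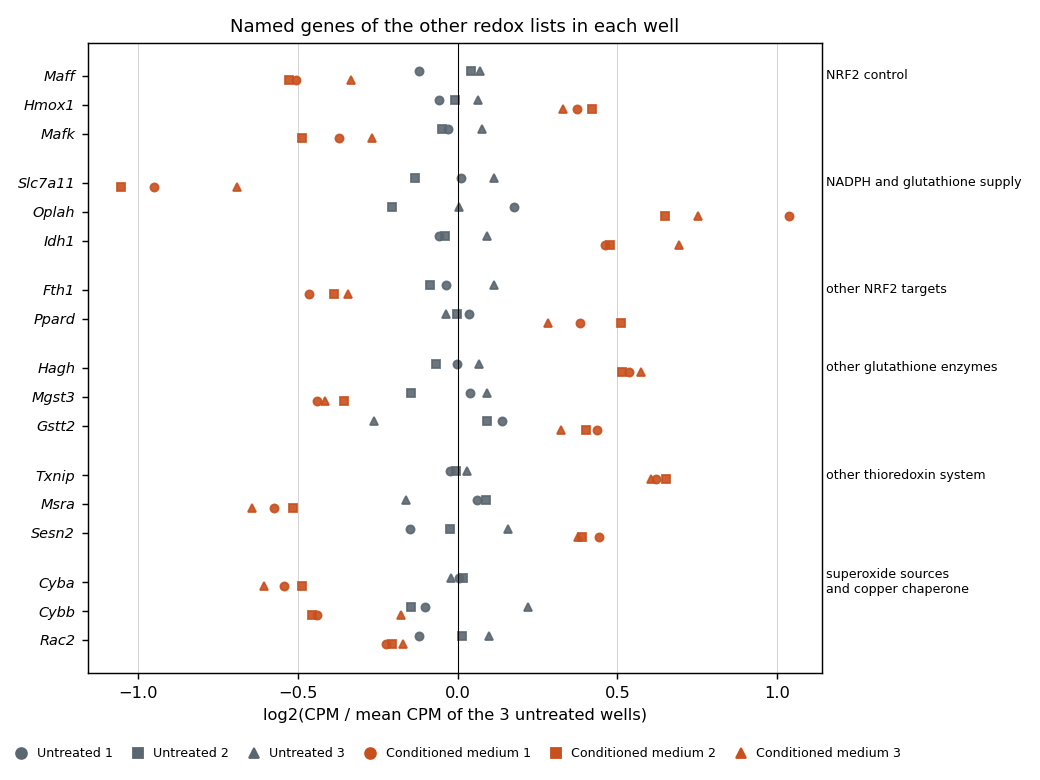
Level in each well of the named genes from the other redox lists, as the log2 ratio of scaled CPM to the mean of the 3 untreated wells, with the well symbols of the antioxidant gene plot. Slc7a11 lies farthest left and Oplah farthest right among the conditioned-medium wells, and Txnip is tightly grouped on the right.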

How the data were processed

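The authors deposited raw counts for every gene in the 6 libraries, with gene lengths. HISAT2, featureCounts and GRCm38 are named in the submitters' processing notes (versions, annotation release and strand setting: not given in the sources used here). Identifiers were matched to GENCODE M21 for symbols (55240 of 55421; the rest held 0.0017% of counts). Genes were kept by filterByExpr, scaled by TMM and compared with edgeR 4.0.16's quasi-likelihood test (limma 3.58.1, R 4.3.3), group only, with Benjamini-Hochberg adjustment and a threshold of 0.05. Every adjusted p comes from this test unless another fit is named. Positive log2 fold changes are higher in conditioned medium, and SE were derived from the F statistic. CPM are TMM-scaled, and TPM were computed from counts and the deposited lengths without TMM factors. Intervals of ratios are 95% and unadjusted. Overlapping exons were counted in the deposited coordinates, and shared 50-base stretches in GENCODE transcripts. Promoter sequences are RefSeq's (GRCm38.p6).

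The members and gene lists were chosen with earlier results of these data known. All 32 members are named, and of each other list the 3 largest changes past the threshold. Well numbers were checked as pairs: deviations from the group means over 13853 genes correlated at 0.328, 0.161 and 0.309 within numbers 1, 2 and 3, and at -0.289 to 0.0112 between different numbers. Wells were treated as paired in the block fit on that basis alone, since no label says what the number means. Separate animals are stated nowhere, and p-values then cover only well-to-well spread, which may be technical. Replicate libraries differed by more than sampling noise (chi-square per degree of freedom of 3.66 to 13.5). Alternatives were RLE and total-count scaling, DESeq2 1.42.0, limma-voom, other low-count filters, the block and leaving out each library. The fits were also run on simulated data that held no effect of the well number. Their outcome is not given here, and no conclusion is drawn from them.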

Additional observations from a re-analysis of the deposited data

How the results depend on the processing

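Of 448 fits of a member under an alternative, 392 kept the direction and the call, 39 crossed the threshold in the same direction, and 17 turned direction, in none of which the gene was called before or after. With total-count scaling Nfe2l2 (0.0266), Gclc (0.0353), Gpx4 (0.0157), Gsto1 (0.0529) and Prdx3 (0.0559) turned positive on the log2 scale. Gsto1 and Prdx3 did so with no low-count filter (0.0119 and 0.0151) and without both wells numbered 3 (0.00829 and 0.0285). Leaving out 1 library gave log2 fold changes of -0.0574 to 0.0169 for Gclc, -0.0377 to 0.0107 for Gsto1 and -0.0309 to 0.0187 for Prdx3, so the direction of these genes is not known. With the replicate block 12 members were higher and 12 lower, and it gained 6 calls, given beside the genes, and lost 0. The median log2 fold change was -0.0136 over the members and 0.0126 over all tested genes. These medians were 0.0441 and 0.0704 with total-count scaling, and 0.00358 and 0.0305 with no low-count filter. Leaving out 1 library gave 5 to 9 higher and 9 to 11 lower members and a member median of -0.0313 to 0.00345. It gave 8 to 13 higher and 11 to 15 lower genes of the other lists. Over all tested genes these fits gave about 1150 to 1650 higher and 1580 to 2000 lower. The cause of these shifts was not tested, beyond the fewer libraries. With 3 wells a group, ratios near 1, such as those of Gclc and Nqo1, are known only within their intervals, and the 0.0984 to 0.125 CPM that 3 counts stand for is well under the level of every member.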

Other observations

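Cytosolic and mitochondrial forms of the same enzymes can be set side by side, a grouping made after their values were seen. The cytosolic genes Sod1, Prdx1, Txn1 and Txnrd1 fell, with log2 fold changes of -0.30, -0.23, -0.33 and -0.26. The cytosolic Prdx2 and Prdx6 were at -0.12 and 0.12, and neither was called. Prdx5, present in cytosol and mitochondria, rose (0.30). Of their mitochondrial counterparts, Prdx3 had a log2 fold change of -0.002, Txn2 of -0.08 (adjusted p = 0.227), Txnrd2 of -0.13 (adjusted p = 0.349) and Sod2 of 0.40, and none passed edgeR's test with TMM scaling, the low-count filter, no block and all 6 wells. Sod2 passed in other fits, as given above. The glutaredoxins differed from these genes, since a mitochondrial form was called. The cytosolic Glrx fell (-0.59), whereas the mitochondrial Glrx2 rose (0.21, adjusted p = 0.0272) and the mitochondrial Glrx5 was not called (0.07, adjusted p = 0.531). The difference between the cytosolic and mitochondrial sets was not tested.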
